A study of Mus musculus with 6 samples.

Results

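Expression of 8 genes of cholesterol synthesis and its control (Hmgcs1, Sqle, Fdft1, Lss, Idi1, Insig1, Srebf2 and Dhcr7) was examined in the spleen of mice given the peptide MOTS-c or a scrambled peptide. Every probe carrying the symbol of any of these genes in the authors' deposited table of fold changes was taken, which gave 12 of its 31692 probes and 8 of its 16361 gene symbols. The animals were female NOD mice, which develop an autoimmune diabetes without treatment, and they entered the study when 6 weeks old. The vehicle group was injected with a scrambled, non-specific form of MOTS-c, and the MOTS-c group with MOTS-c itself, a short peptide whose reading frame lies in the mitochondrial genome, at 0.5 mg/kg/day into the peritoneum each morning. Spleens of both groups were collected at 18 weeks of age after a fast of 16 to 18 h. Each group had 3 samples, called vehicle 1 to 3 and MOTS-c 1 to 3, and each was hybridised to a 1-colour Agilent array. Whether the 3 samples of a group were taken from different animals is not given in the labels, so the p-values reflect only how these samples varied, which may be technical.

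Cells make cholesterol from acetyl-CoA through mevalonate, isoprenoid pyrophosphates, squalene and lanosterol. The transcription factor SREBP2, the product of Srebf2, switches on most enzymes of this route and the receptor that takes up cholesterol from lipoproteins. When sterols are plentiful, INSIG proteins hold SREBP2 and its escort SCAP in the endoplasmic reticulum, and when sterols are scarce SREBP2 is cut in the Golgi and its active part enters the nucleus. In the spleen, dividing lymphocytes and red cell precursors make membrane and draw on this route. Of the 8 genes, 6 encode enzymes and 2, Insig1 and Srebf2, encode parts of the control, and none is itself an uptake receptor.

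Because members of this group share SREBP2 as a regulator, sequence before their start sites is shown for 4 of them. These are the 2 genes with an exact match to a searched form of the sterol regulatory element and 2 without. Of the 8 genes, 6 had promoter entries in RefSeq for GRCm38.p6, and the 250 bases before each start were searched on both strands. Capitals mark CCAAT (read as ATTGG on the other strand), the box bound by NF-Y, and matches to sterol regulatory elements, which SREBP binds.
Hmgcs1, chr13:119690101-119690350, + strand: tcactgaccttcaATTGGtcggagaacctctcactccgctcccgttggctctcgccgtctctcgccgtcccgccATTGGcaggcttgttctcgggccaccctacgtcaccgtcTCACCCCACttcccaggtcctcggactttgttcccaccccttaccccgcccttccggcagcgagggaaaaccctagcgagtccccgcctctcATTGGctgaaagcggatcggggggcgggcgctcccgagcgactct
Insig1, chr5:28071162-28071411, + strand: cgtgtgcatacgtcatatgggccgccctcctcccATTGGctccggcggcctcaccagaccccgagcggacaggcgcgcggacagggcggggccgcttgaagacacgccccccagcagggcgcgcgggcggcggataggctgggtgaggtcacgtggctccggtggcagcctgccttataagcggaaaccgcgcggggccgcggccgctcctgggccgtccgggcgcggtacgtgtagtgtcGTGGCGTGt
Idi1, chr13:8885356-8885605, + strand: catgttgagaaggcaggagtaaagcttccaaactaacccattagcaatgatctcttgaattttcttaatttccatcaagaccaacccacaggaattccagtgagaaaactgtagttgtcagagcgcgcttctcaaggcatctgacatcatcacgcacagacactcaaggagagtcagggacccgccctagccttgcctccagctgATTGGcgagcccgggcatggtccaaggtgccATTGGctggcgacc
Srebf2, chr15:82147019-82147268, + strand: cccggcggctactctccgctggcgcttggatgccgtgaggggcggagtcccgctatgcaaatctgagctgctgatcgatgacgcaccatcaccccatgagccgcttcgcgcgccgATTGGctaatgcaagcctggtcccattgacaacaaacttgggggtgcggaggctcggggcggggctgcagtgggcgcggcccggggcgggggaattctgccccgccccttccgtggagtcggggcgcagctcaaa
The capitals TCACCCCAC in Hmgcs1, 137 bases before the start, matched TCACNCCAC, a form found in 1.05% of 32851 promoters searched over the same length. The capitals GTGGCGTG in Insig1, 9 bases before the start, are CACNCCAC on the other strand, a shorter form nested in the former and found in 5.29% of promoters. CCAAT stood in at least 1 entry of all 6 genes, which had 8 entries together. There were 3 copies in Hmgcs1, 2 in Idi1 and 1 each in Insig1, Srebf2 and Lss. Counted by entry and not by gene, 33.8% of all promoters held it, so these figures are of unlike units. Of 3 entries for Dhcr7, 1 held CCAAT, in 2 copies. A match to these letters is a description of the sequence and not a binding site.

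The arrays were alike in signal, with 61.8% to 64.0% of spots well above background, a 75th percentile of 678 to 926 and 0 saturated spots. All 10 B cell, 10 T cell and 10 red pulp macrophage markers were measured above background, while 4 of 8 adipocyte and 3 of 8 hepatocyte markers were. Vehicle 1 stood apart, with correlations over probes of 0.955 to 0.958 with the MOTS-c arrays, where all other pairs of arrays lay between 0.978 and 0.991. Markers of pancreatic acinar cells, from an organ next to the spleen, were highest in vehicle 3, at a mean deviation of 4.57 on the log2 scale, and next in vehicle 1 at 1.21. Vehicle 1 and 2 shared a slide, and vehicle 3 shared the other slide with all MOTS-c arrays.

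The 8 genes differed in direction. By gene, taking the brightest probe of each, 4 were lower and 4 higher with MOTS-c, where 47.8% of all tested probes were lower and 52.2% higher, and the median difference on the log2 scale was -0.10. Sqle, Fdft1 and Idi1 had every MOTS-c value below every vehicle value, at folds of 1.30 to 1.68, while Hmgcs1, Dhcr7 and Lss had every MOTS-c value above, at folds of 1.12 to 1.37. Insig1 and Srebf2 overlapped between groups. No member reached an adjusted p under 0.05 in limma's fit over all 33740 tested probes, where 0.00593% of probes were called higher and 0.0% lower. Levels are the log2 signal of a probe minus the 75th percentile of its array, so 0 is the signal of that percentile, and levels of different probes cannot be compared. All 12 probes were well above background on all 6 arrays.

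**Figure D1:**
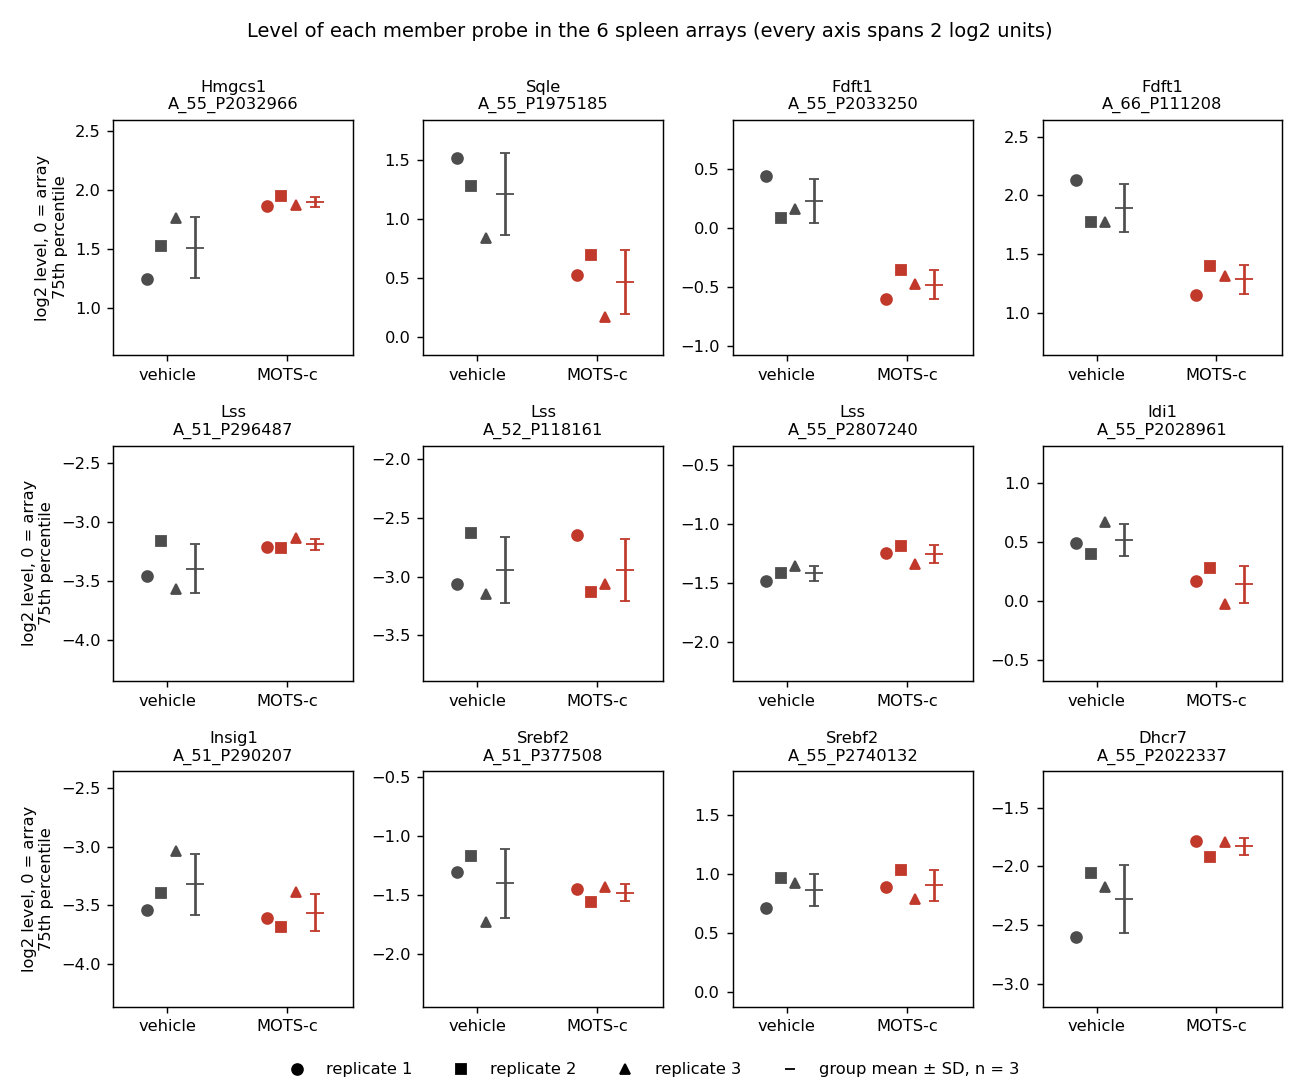
Level of each of the 12 probes in the 6 arrays, as log2 signal with 0 at the array's 75th percentile; points are arrays and the bars beside them the group mean with its SD (n = 3). The MOTS-c points of Sqle, Idi1 and both Fdft1 probes sit below all vehicle points, those of Hmgcs1, Dhcr7 and 1 Lss probe sit above, and the other 5 probes overlap.

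Sqle, squalene epoxidase, puts the oxygen on squalene and is a control point of the later route. Its probe read 1.52, 1.28 and 0.84 on vehicle 1 to 3 and 0.53, 0.70 and 0.17 on MOTS-c 1 to 3. Vehicle 3 was the lowest vehicle array and MOTS-c 3 the lowest of all, and the groups did not overlap. The mean was 1.21 ± 0.35 (SD, n = 3) in vehicle and 0.47 ± 0.27 in MOTS-c, a 1.68-fold lower level with a log2 difference of -0.75 ± 0.23 (SE, 95% interval -1.28 to -0.21). Its limma p was 0.0128, with an adjusted p of 0.123. This was the largest difference of the 12 probes. With the slide as a block it was -0.37 (unadjusted p 0.210), a value that rests on vehicle 3 as the only vehicle array on the slide that also held the 3 MOTS-c arrays. The probe lies at chr15:59162688-59162747 in mm9, the build of the array's design.

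Fdft1, squalene synthase, joins a pair of farnesyl pyrophosphates and is the step that commits them to sterols. Its brighter probe, A_66_P111208, read 2.13, 1.77 and 1.77 on vehicle 1 to 3 and 1.15, 1.40 and 1.31 on MOTS-c 1 to 3. Vehicle 1 was the highest array and MOTS-c 1 the lowest, and the groups did not overlap. The difference was -0.61 ± 0.16 (SE, 95% interval -0.99 to -0.22), a 1.52-fold lower level, with a limma adjusted p of 0.104. The other probe, A_55_P2033250, read 0.45, 0.090 and 0.17 in vehicle and -0.60, -0.36 and -0.47 in MOTS-c. It showed the same order of groups, again without overlap, and differed by -0.71 ± 0.16 (SE, limma adjusted p 0.0820), a 1.64-fold lower level. This was the smallest adjusted p of the 12 probes. With the slide as a block its probes read -0.49 (unadjusted p 0.0789) and -0.64 (0.0310). The probes lie at chr14:63765457-63765516 and chr14:63765750-63769990, and the latter span is longer than a probe.

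Idi1, isopentenyl diphosphate isomerase, makes the activated isoprene unit from which farnesyl pyrophosphate is built. It read 0.49, 0.40 and 0.67 on vehicle 1 to 3 and 0.17, 0.27 and -0.030 on MOTS-c 1 to 3. MOTS-c 3 was the lowest array and vehicle 3 the highest, with no overlap. The difference was -0.38 ± 0.16 (SE, 95% interval -0.75 to -0.015), a 1.30-fold lower level, with a limma p of 0.0433 and an adjusted p of 0.185. With the slide as a block it was -0.53 (unadjusted p 0.0447). Its probe lies at chr13:8891524-8891583.

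Hmgcs1, the cytosolic HMG-CoA synthase, forms HMG-CoA at the head of the mevalonate route. It read 1.24, 1.53 and 1.76 on vehicle 1 to 3 and 1.87, 1.95 and 1.88 on MOTS-c 1 to 3. The MOTS-c arrays lay close together above all vehicle arrays, and vehicle 1 was lowest, so the groups had SDs of 0.26 in vehicle and 0.046 in MOTS-c. The difference was 0.39 ± 0.17 (SE, 95% interval -0.015 to 0.79), a 1.31-fold higher level, with a limma p of 0.0568 and an adjusted p of 0.208. It was 0.25 without vehicle 1 and 0.14 with the slide as a block (unadjusted p 0.532). The design places the probe on chr13_random, positions 114793 to 114852, a piece of chromosome 13 that mm9 does not place.

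Dhcr7, the reductase that turns 7-dehydrocholesterol into cholesterol, acts at the end of the route. It read -2.60, -2.05 and -2.18 on vehicle 1 to 3 and -1.78, -1.92 and -1.79 on MOTS-c 1 to 3. Vehicle 1 stood lowest here too, and no MOTS-c value overlapped the vehicle values. The difference was 0.45 ± 0.18 (SE, 95% interval 0.023 to 0.87), a 1.37-fold higher level, with a limma p of 0.0414 and an adjusted p of 0.182. Without vehicle 1 it was 0.29, and with the slide as a block 0.35 (unadjusted p 0.231). The probe lies at chr7:151033874-151033933.

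Lss, lanosterol synthase, closes squalene epoxide into the sterol ring and had 3 probes. The brightest, A_55_P2807240, read -1.48, -1.42 and -1.36 on vehicle 1 to 3 and -1.25, -1.18 and -1.34 on MOTS-c 1 to 3. The groups did not overlap, but MOTS-c 3 lay next to vehicle 3. The difference was 0.16 ± 0.14 (SE, 95% interval -0.16 to 0.48; limma adjusted p 0.461), a 1.12-fold higher level, and 0.10 with the slide as a block. The other 2 probes overlapped between groups. A_51_P296487 differed by 0.21 ± 0.16 (SE), and by 0.38 with the slide as a block (unadjusted p 0.117). A_52_P118161 differed by 0.0019 ± 0.21 (SE), and its sign turned with quantile normalization (-0.034), so it gave no direction. The probes lie at chr10:76016592-76016651, chr10:76015992-76016051 and chr10:76019513-76019572 in mm9.

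Insig1, which holds SCAP and SREBP in the endoplasmic reticulum and is itself a target of SREBP, read -3.54, -3.40 and -3.04 on vehicle 1 to 3 and -3.61, -3.69 and -3.39 on MOTS-c 1 to 3. MOTS-c 3 lay above vehicle 1 and 2, so the groups overlapped. The difference was -0.24 ± 0.18 (SE, 95% interval -0.67 to 0.19; limma adjusted p 0.420). Blocking on the slide gave -0.53 (unadjusted p 0.0481), and leaving out single arrays gave -0.35 to -0.095. The probe lies at chr5:28404246-28404305.

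Srebf2 had 2 probes, and neither separated the groups. The brighter, A_55_P2740132, read 0.71, 0.96 and 0.93 on vehicle 1 to 3 and 0.89, 1.04 and 0.78 on MOTS-c 1 to 3. The lowest array was vehicle 1 and the highest MOTS-c 2, with the other values mixed between them, and the difference was 0.037 ± 0.15 (SE, 95% interval -0.32 to 0.39; limma adjusted p 0.887). The other, A_51_P377508, differed by -0.079 ± 0.18 (SE, 95% interval -0.51 to 0.35). With the slide as a block the probes read -0.024 and 0.25, so each turned sign. These arrays measure the transcript of Srebf2 and not the cutting of its protein. The probes lie at chr15:82035495-82035554 and chr15:82034765-82034824.

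Counted over the 12 probes, 6 were lower and 6 higher, with a median difference of -0.039 against 0.023 over all tested probes. At an unadjusted p under 0.05 by limma stood 4 probes lower and 1 higher, where 14.1% of all tested probes were lower and 11.3% higher at that limit. Groups did not overlap in 4 probes that were lower and 3 that were higher, against 18.5% and 16.3% of all probes. The 4 lower probes come from 3 genes, since both Fdft1 probes are among them. Across all probes the 10th percentile of the difference was -0.64 and the 90th 0.60, so Sqle and A_55_P2033250 of Fdft1 lay outside the middle of the array and the other 10 probes within it. The vehicle SD was larger than the MOTS-c SD in 10 of 12 probes (83.3%), as it was in 72.7% of all tested probes. Vehicle 1 was the lowest array for 4 of the 8 genes and the highest for 2.

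In the authors' deposited table, which holds quantile-normalized values and a test of its own, the same 4 probes had a p-value under 0.05 as lower, where 7.90% of its probes were, and 0 members did as higher, where 5.54% were. The authors' deposited table gives signed folds of -1.65 for Sqle, -1.64 and -1.47 for the Fdft1 probes, -1.29 for Idi1, 1.35 for Hmgcs1 and 1.33 for Dhcr7. No probe of the authors' deposited table had an adjusted p under 0.05, and the smallest was 0.370.

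Ordered by reaction, genes of the route lay in stretches of like sign. This grouping was made after the values were seen and has no test. Idi1, Fdps, Fdft1 and Sqle follow each other from the isoprene unit to squalene epoxide. They were lower in 4 of 4 genes, each without overlap, with a median of -0.54. Of all tested probes, 18.5% were lower without overlap. All of the 4 genes but Fdps were already counted above. Fdps, farnesyl pyrophosphate synthase, read 1.95, 1.90 and 1.68 on vehicle 1 to 3 and 1.32, 1.60 and 1.16 on MOTS-c 1 to 3. Its groups stood apart as those of its neighbours did, at a difference of -0.48 ± 0.17 (SE, limma adjusted p 0.153), or -0.31 under the slide block. The median of the 4 was -0.43 with the slide as a block and -0.45 without vehicle 1. Each of the 4 kept its sign with any array left out, but so did 17 of all 18 genes ordered here.

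Before that stretch, Hmgcs1, Mvk and Mvd were higher and Pmvk overlapped, with a median of 0.44 over the 4 genes. Mvd, which decarboxylates mevalonate pyrophosphate, read -3.37, -2.93 and -2.48 on vehicle 1 to 3 and -2.17, -1.99 and -2.01 on MOTS-c 1 to 3. All MOTS-c values lay above all vehicle values, and vehicle 1 was the lowest array. The difference was 0.87 ± 0.23 (SE, limma adjusted p 0.101), a 1.83-fold higher level, and 0.42 with the slide as a block. Mvk, mevalonate kinase, differed by 0.48 ± 0.19 (SE), and Pmvk, the next kinase, by -0.062 ± 0.14 (SE), which turned to 0.035 with quantile normalization and 0.044 under the slide block. Blocking on the slide brought Mvk to 0.25 and the median of these 4 to 0.19, and without vehicle 1 that median was 0.28.

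After squalene epoxide, the 10 plotted genes from Lss to Dhcr7 were mixed, with 7 higher and 3 lower and a median of 0.12. Without vehicle 1 they were 6 higher and 4 lower, with a median of 0.066. Cyp51, the lanosterol demethylase, differed by 0.31 ± 0.16 (SE) and Ebp, the sterol isomerase, by 0.24 ± 0.16 (SE), both without overlap and both 0.11 under the slide block. Lbr, which reduces a ring bond of the sterol and anchors chromatin to the nuclear lamina, was the only gene of the 10 that was lower without overlap. It read 6.35, 5.81 and 6.33 on vehicle 1 to 3 and 5.50, 5.72 and 5.39 on MOTS-c 1 to 3, a difference of -0.63 ± 0.20 (SE, limma adjusted p 0.126). Tm7sf2, which carries out the same reduction, differed by -0.088 ± 0.15 (SE), and another of its probes by 0.13. The former value was 0.10 under the slide block, so Tm7sf2 gave no direction.

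**Figure D2:**
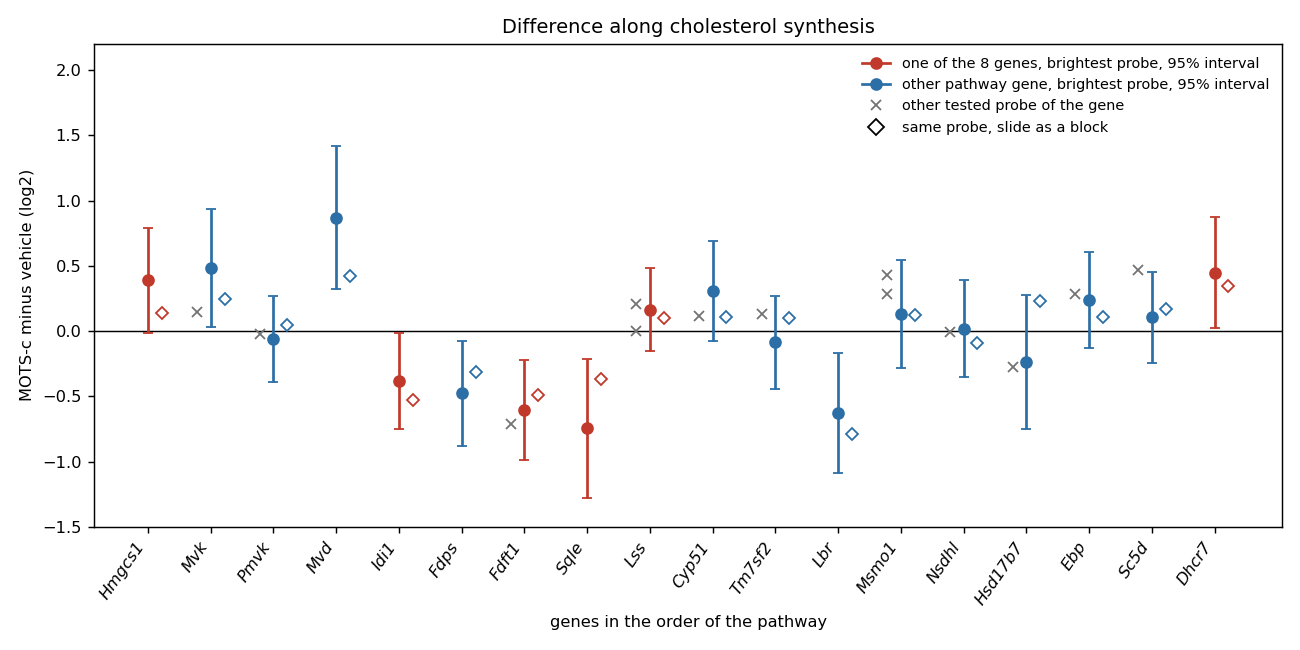
Log2 difference, MOTS-c minus vehicle, for 18 genes of cholesterol synthesis in the order of the reactions; dots are the brightest probe with its 95% interval (the 8 genes in red), crosses other tested probes, and open diamonds the same probe with the slide as a block. Idi1, Fdps, Fdft1 and Sqle lie below 0 in both fits, at a median of -0.54, while Hmgcs1, Mvk and Mvd lie above it.

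Over the 14 tested of 15 listed further genes of sterol synthesis, 8 were higher and 6 lower, and none passed the adjusted threshold by limma. At an unadjusted p under 0.05 stood 2 higher and 2 lower, near the shares of 11.3% and 14.1% among all tested probes, and the median difference was 0.063. Without vehicle 1 the median was -0.026, the opposite sign.

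Of the 11 genes that control SREBP besides Insig1 and Srebf2, 4 were higher and 7 lower, with a median of -0.060, or -0.00070 under the slide block, and none passed. The genes that sense sterols or carry and cut SREBP overlapped between groups. Scap, the escort, differed by 0.13 ± 0.15 (SE), Insig2 by -0.060 ± 0.13, or 0.021 under the slide block, and Mbtps1, the protease of the opening cut, by -0.0092 ± 0.13, or 0.20 after quantile normalization. Srebf1, which encodes the SREBP that drives fatty acid genes, differed by -0.28 ± 0.26 (SE) and by 0.27 under the slide block.

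Groups did not overlap in 3 of the 11 genes of this list, all lower. Of all tested probes, 18.5% were lower and 16.3% higher in this way. Rnf139 and Ufd1, which are among these 3 genes, belong to the removal of proteins from the endoplasmic reticulum. Through it sterols mark enzymes of the route for degradation. Rnf139, a ubiquitin ligase also called TRC8, read 2.58, 2.08 and 2.35 on vehicle 1 to 3 and 1.57, 1.66 and 1.40 on MOTS-c 1 to 3. Each MOTS-c array was lower, with a difference of -0.79 ± 0.18 (SE, limma adjusted p 0.0816) and of -0.80 under the slide block. Ufd1, a cofactor of the extracting ATPase, differed by -0.68 ± 0.21 (SE, limma adjusted p 0.121), or -0.44 under the slide block. Erlin1 and Erlin2, membrane proteins of the same process, overlapped between groups, at 0.25 ± 0.16 and 0.12 ± 0.18 (SE), the latter turning to -0.081 under the slide block. These genes serve many substrates besides sterol enzymes.

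Among 14 tested of 16 listed genes of sterol uptake and trafficking, 8 were higher and 6 lower, with a median of 0.064, or -0.076 without vehicle 2, and none passed. No gene of this list was lower without overlap and 3 were higher, near the 16.3% of all tested probes that were higher in this way, where 18.5% were lower. Gramd1a, which carries cholesterol from the plasma membrane to the endoplasmic reticulum, read 1.86, 2.35 and 2.39 on vehicle 1 to 3 and 2.75, 3.04 and 3.06 on MOTS-c 1 to 3. Its difference was 0.75 ± 0.19 (SE, limma adjusted p 0.0967), and another probe differed by 0.91. Stard3, a sterol carrier of late endosomes, differed by 0.41 ± 0.18 (SE), though another probe read -0.14 and the slide block gave 0.12. Npc2, which binds cholesterol in the lysosome, differed by 0.20 ± 0.14 (SE). Scarb1, a receptor for high-density lipoprotein, differed by -0.22 ± 0.16 (SE), and Stard4, a sterol carrier that SREBP2 drives, by -0.26 ± 0.16 (SE), both with overlap. Under the slide block Scarb1 read -0.081 and Npc2 0.13, and without vehicle 1 Scarb1 read -0.12, Npc2 0.12 and Stard4 -0.16.

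Genes of sterol esters and oxysterols had higher means in 8 of 10, where 52.2% of all tested probes did, with a median of 0.34 that was 0.21 under the slide block, and none passed limma's test. Soat1, which esterifies cholesterol in most cells, read 0.29, 0.42 and 0.76 on vehicle 1 to 3 and 1.24, 1.02 and 1.20 on MOTS-c 1 to 3. Every MOTS-c array was above every vehicle array, at a difference of 0.66 ± 0.17 (SE, limma adjusted p 0.0967), or 0.40 under the slide block. Soat2, its relative of liver and gut, differed the other way, by -0.86 ± 0.19 (SE, limma adjusted p 0.0809). Ch25h, which makes 25-hydroxycholesterol, an oxysterol that blocks SREBP processing, read -1.69, -1.13 and -0.83 on vehicle 1 to 3 and -0.47, -0.29 and -0.34 on MOTS-c 1 to 3. It stood higher in each MOTS-c array, by 0.85 ± 0.23 (SE, limma adjusted p 0.104), or 0.46 under the slide block. Gpr183, a receptor for oxysterols on lymphocytes and dendritic cells, was 2.15-fold higher (limma adjusted p 0.179), with vehicle 1 far below the other arrays at a level of -2.29. Its log2 difference was 0.57 without vehicle 1 and 0.39 under the slide block.

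The lists of sterol efflux, of isoprenoids outside sterols and of fatty acid synthesis were split in direction. Of 9 efflux genes 6 were higher and 3 lower, with a median of 0.16 that was 0.0033 without vehicle 2 and 0.072 without MOTS-c 3. Abcg4, a sterol exporter, differed by -1.30 ± 0.25 (SE, limma adjusted p 0.0795), but another probe of it by -0.082. Lpcat3, a phospholipid enzyme driven by LXR, differed by -0.92 ± 0.21 (SE), and Nr1h3, the sterol receptor LXR alpha, by 0.68 ± 0.37 (SE), or 0.20 under the slide block. Of 12 isoprenoid genes 7 were higher and 5 lower, at a median of 0.016, with Rabggtb, a subunit of the transferase that prenylates Rab proteins, at -0.47 ± 0.18 (SE). Of 14 fatty acid genes 7 were higher and 7 lower, at a median of -0.0097, or 0.029 after quantile normalization and 0.14 under the slide block. Fads2 and Acss2 differed by -0.89 ± 0.23 and -0.72 ± 0.20 (SE), and Scd1 and Elovl5 by 0.76 ± 0.24 and 0.51 ± 0.17 (SE). Other tested probes ran from -0.92 to 0.062 for Fads2 and from -0.64 to -0.22 for Acss2, and another of Elovl5 read 0.77. Under the slide block Fads2 read -0.49 and Elovl5 0.33.

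**Figure D3:**
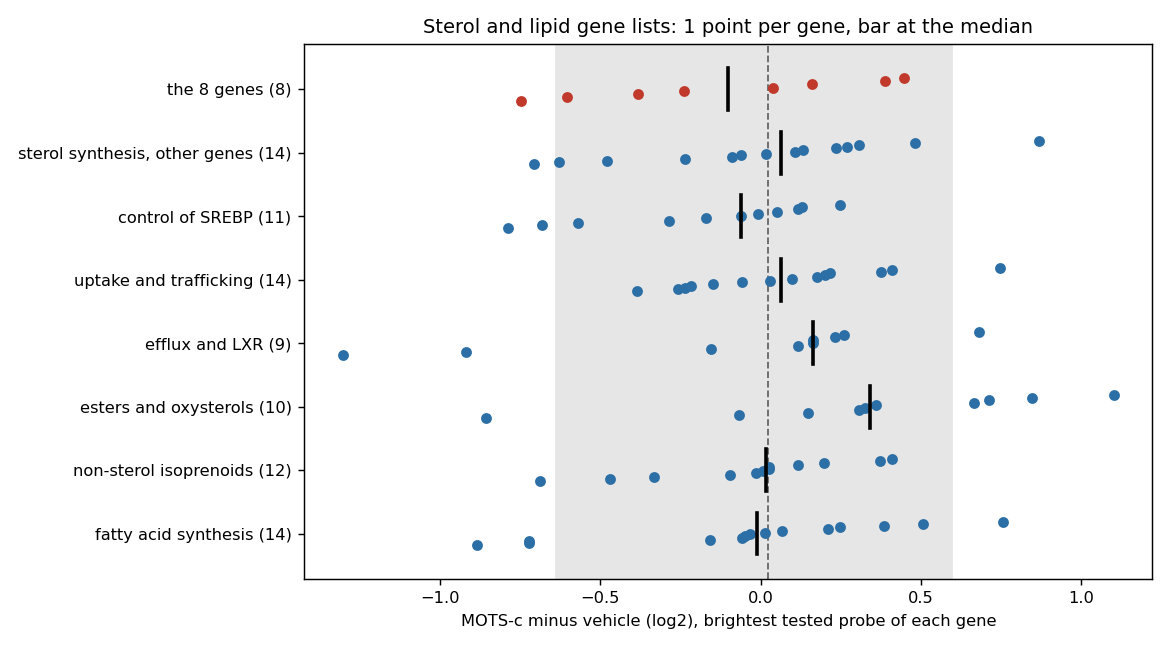
Log2 difference, MOTS-c minus vehicle, of the brightest tested probe of each gene in the 8 genes (red) and 7 related lists (blue), 1 point per gene, with the number of genes in brackets; black bars are list medians, the grey band runs from the 10th to the 90th percentile of all tested probes (-0.64 to 0.60) and the dashed line is their median. The medians of all lists lie within the band, from -0.10 for the 8 genes to 0.34 for esters and oxysterols.

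Markers of several cell types differed between the groups as well. In bulk RNA of a tissue, fewer cells of a type and less RNA per cell cannot be told apart. Erythroid markers were lower in 14 of 14 genes, with a median of -1.25, and cell cycle genes in 14 of 14, with a median of -1.17. The groups did not overlap in any gene of either list. Among all tested probes 47.8% were lower and 52.2% higher, and 18.5% were lower without overlap. Sums given here are the log2 of levels added on the linear scale, so the brightest probes weigh most. The sum of the erythroid markers was 9.89 to 10.4 in vehicle and 9.41 to 9.54 in MOTS-c. That of the cell cycle genes was 8.44 to 9.18 in vehicle and 7.51 to 7.85 in MOTS-c. T cell markers were higher in 10 of 10 genes (median 0.94), with sums of 4.98 to 6.47 in vehicle and 6.81 to 6.96 in MOTS-c. B cell markers were higher in 10 of 10 (median 0.72), with sums of 5.76 to 7.25 and 7.39 to 7.52. NK and cytotoxic markers were higher in 8 of 8 (median 1.18), with sums of 2.15 to 4.19 and 4.33 to 4.95. Vehicle 1 had the lowest T, B and NK cell means, at deviations of -1.45, -1.37 and -1.73. Without vehicle 1 the T, B and NK cell medians were 0.39, 0.28 and 0.46, and under the slide block 0.38, 0.50 and 0.54. The B cell mean of vehicle 2, at 0.32, was above that of MOTS-c 2, at 0.28. The erythroid and cell cycle medians were -1.02 and -0.96 without vehicle 1. Neutrophil markers were higher in 10 of 10 genes but overlapped in every gene, with a median of 0.95 that was -0.23 under the slide block, and red pulp macrophage markers were higher in 3 and lower in 7, at a median of -0.10. The mean deviation of the 8 sterol genes ran from -0.0057 to 0.11 over vehicle arrays and from -0.11 to 0.0070 over MOTS-c arrays. That mean averages 4 genes that were higher and 4 that were lower. The sum of the 8 genes, in which the brightest probes weigh most, was 3.67 to 3.73 in vehicle and 3.43 to 3.60 in MOTS-c. The part of these cell markers in the differences of Sqle, Fdft1, Idi1, Hmgcs1 and Dhcr7 was not tested.

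**Figure D4:**
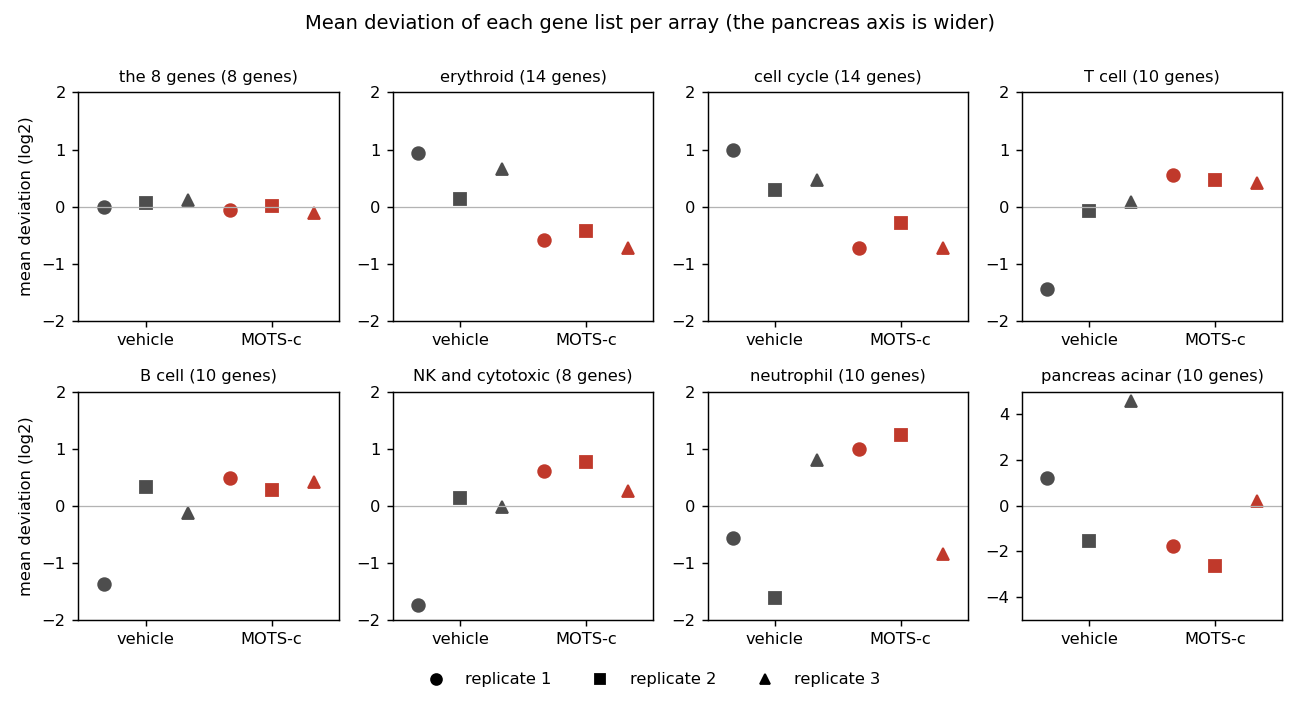
Mean deviation on the log2 scale of the 8 sterol genes and of 7 marker lists, per array, as the average over genes of a level minus that gene's mean over the 6 arrays. The mean of the 8 genes stays between -0.11 and 0.11 on every array, but it averages 4 higher and 4 lower genes. Single genes deviate further, as Sqle at 0.68 on vehicle 1 and -0.67 on MOTS-c 3, and Dhcr7 at -0.55 on vehicle 1. Erythroid and cell cycle means are lower and T, B and NK cell means mostly higher on the MOTS-c arrays. Pancreas acinar markers, on a wider axis, are highest in vehicle 3 at 4.57.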

How the data were processed

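Per the file headers, Agilent Feature Extraction 11.0.1.1 gave each spot of the 1-colour arrays a processed signal intensity, background-subtracted within the array and not normalized between arrays. The authors' deposited table holds log2 values, quantile normalized judging by their distribution, and a signed fold given as a score with a p-value per probe; its signals equalled the scanner's in 100% of probes (relative tolerance 0.0001). Values used here were log2 of the processed signal less the 75th percentile of its array, with outlier spots (97 to 145 per array) left out and spots of a probe averaged. Of 56605 probes, the 33740 that stood well above background throughout at least 1 group were compared with limma 3.58.1 in R 4.3.3 (lmFit, eBayes, two-sided, Benjamini-Hochberg, threshold 0.05). Differences are MOTS-c minus vehicle. An exact permutation test of 3 against 3 has a smallest p of 0.1, so none was run, and the number of arrays limits the precision.

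Groups and numbers came from the titles. Same-numbered samples did not deviate together (correlations -0.17, 0.0064 and -0.090), so the numbers were not taken as pairs. The members and lists were chosen with earlier results of these data known. Named were every member and probe, any gene of the synthesis, control and uptake lists, and up to 4 of each other list by smallest p; some genes so named are not reported here. In pathway lists a gene stood for its brightest tested probe. On simulated data of 33734 probes for this comparison, 34 of 100 probes changed by a log2 of 1 and 77 of 100 changed by 2 were called, with 7 unchanged. Probe coordinates are those of the design on mm9, and the place of a probe within its transcript was not determined. Alternatives tried were quantile normalization, normexp on median signals, other probe filters, the authors' log2 values, slide and number blocks, and leaving out each array.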

Additional observations from a re-analysis of the deposited data

How the results depend on the processing

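No probe of the 8 genes passed the adjusted threshold under any alternative, and 163 of 176 alternative values of single probes kept their sign. Many of these values could not turn, because the other probe filters, the brightest-probe choice and the replicate block leave a probe's difference unchanged. Within slide 2 the difference of a probe equals that under the slide block, so these settings count the same value again. The count passing by limma over all probes was 2 (8555 at an unadjusted p under 0.05), and 2 again with quantile normalization or the brightest probe per gene. It was 0 with no filter on dim probes, on the table's probes, with the authors' values, within slide 2, with the replicate block (7175 at an unadjusted p under 0.05) and with normexp, which was added after seeing the data and ran on median signals in place of the mean signals planned. With the slide as a block it was 1. Leaving out single arrays gave 0 to 1113: 1113 without vehicle 2, 39 without vehicle 3, 1 without MOTS-c 1 or 2, and 0 without vehicle 1 or MOTS-c 3 (6370 and 4997 at an unadjusted p under 0.05). The median of the 12 probes ran from -0.12 without MOTS-c 1 to 0.062 without vehicle 2, and was 0.038 with the slide as a block. With the replicate block that median was -0.039, as in the main fit, because this block cannot alter the difference of the group means. At an unadjusted limma p under 0.05 the replicate block left 3 member probes lower and 0 higher, against 4 and 1 in the main fit. Lss A_52_P118161 turned to -0.034 with quantile normalization, -0.039 with the authors' values, -0.045 with normexp and ran from -0.15 to 0.16 with single arrays left out (-0.058, -0.098 and -0.15 without vehicle 1, vehicle 3 or MOTS-c 1). Srebf2 A_51_P377508 read 0.25 under the slide block and within slide 2, and -0.24 to 0.037 with single arrays left out (0.037 without vehicle 2). Srebf2 A_55_P2740132 turned to -0.024 with either slide setting, and ran from -0.042 to 0.097 with single arrays left out (-0.042 and -0.031 without vehicle 1 or MOTS-c 2). The cause was not tested.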
